A study of Homo sapiens with 6 samples.

Results

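The 39 genes described here encode enzymes that make, salvage, phosphorylate or break down nucleotides. They were taken from a written list by exact symbol, and each of the 39 symbols matched a single row of the 20348 genes in the table. They fall into 12 deoxynucleotide enzymes, 8 pyrimidine enzymes, 17 purine enzymes and 2 kinases that serve all nucleotides. RNA was sequenced from MV4-11, an established human cell line of acute myeloid leukemia (AML) that carries a *KMT2A* fusion and an internal tandem duplication of *FLT3*. Cells were exposed to 1 μM WNK463, a small molecule inhibitor of the With-No-Lysine (WNK) kinases, for 48 h (WNK463, n = 3). Other cells served as a blank control for the same time (Control, n = 3). The labels do not say whether the samples are separate cultures or whether the blank held solvent, so p-values measure the spread between these samples, which may be technical.

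Cells build purine rings stepwise on phosphoribosyl pyrophosphate (PRPP) to reach IMP, which is turned into AMP or GMP, and they build the pyrimidine ring as orotate before joining it to PRPP to form UMP. Ribonucleotide reductase then converts ribonucleoside diphosphates into deoxynucleotides, while salvage kinases and phosphoribosyltransferases recover bases and nucleosides. Dividing cells raise the deoxynucleotide branch in S phase, and several enzymes of these routes are targets of leukemia drugs.

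Total counts lay between 14915745 and 17411780 per sample, and the 39 genes had between 212 counts (*CTPS2*) and 12184 counts (*SAMHD1*) in any sample, so none was limited by depth. Myeloid markers were present, with summed levels of 1396 to 1440.0 CPM (counts per 1000000 counts of the normalized library) in Control and 1394 to 1412 CPM with WNK463 over the 10 genes. Within these sums the markers moved in opposite directions, with 4 lower, 5 higher and *SPI1* not passing by the edgeR test used for all genes. *MPO*, the granule enzyme myeloperoxidase, fell from 7.47 ± 0.423 to 1.31 ± 0.479 CPM (here and throughout, ± gives the SD of n = 3 samples unless a standard error is named), a log2 fold change of -2.50 that exceeds the fall of any of the 39 genes. *KMT2A* had -0.59, while the integrin *ITGAM* had 1.25, the receptor *CSF1R* 0.97 and *HOXA9* 0.72. Smaller shifts were those of *CD33* (-0.38), *FLT3* (-0.20), *MEIS1* (0.33) and *CEBPA* (0.18). Of 15 markers of other cell types, 10 were below the filter on low counts, and *CD3D*, *MS4A1*, *EPCAM*, *COL1A2* and *HBB* had 0 counts in all samples. The summed level of the 15 was 105 to 118 CPM in Control and 186 to 199 CPM with WNK463, and *PECAM1* made up most of it, at 96.9 ± 7.16 and 169 ± 6.72 CPM. The macrophage complement genes were higher too, but *MARCO*, also a macrophage gene, did not pass (log2 fold change -0.27), and the keratin gene *KRT18* was lower (-0.68). *C1QA* went from 0.985 ± 0.627 to 13.1 ± 1.12 CPM, a log2 fold change of 3.69, and *C1QB*, with at most 1 count in a Control sample, reached 1.09, 0.64 and 1.47 CPM with WNK463. The part of these marker changes in the results for nucleotide enzymes was not tested.

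E2F factors drive transcription in S phase, and several genes of the deoxynucleotide branch are known targets of theirs. The 250 bases before each listed start were read from RefSeq (GRCh38.p14) and searched on both strands for the E2F-like words TTCCCGC as well as TTCGCGC, and likewise TTGCCGC as well as TTGGCGC. Of the 36 members with a listed start, 10 held such a word (27.8%), against 13.0% of all 27305 genes in that list. The word was found in *RRM1*, *RRM2*, *TYMS*, *TK1*, *DUT*, *DCK*, *GART*, *PAICS*, *PRPS2* and *GUK1*. It was in 4 of the 6 members with a listed start that fell by at least 2-fold, the 4 of the deoxynucleotide branch, and in 1 of the 5 that rose, *DCK*. *PFAS* and *APRT*, which fell by at least 2-fold, did not hold it. A word match is a description of these letters, not a bound site. The 27305 genes were not limited to the 11973 genes tested for expression. The members also held the GC box word GGGCGG more often, 80.6% against 46.2%, so a higher share was not particular to the E2F-like words. The part of E2F factors in the falls was not tested. The sequences of those 4 genes are shown since they hold the largest falls of the deoxynucleotide branch, with the E2F-like word, or its reverse complement, in capitals. For *RRM1* the whole window is printed, on the plus strand at chr11:4094435-4094684, directly upstream of the gene. For the others, 30 bases are printed, since the GENCODE 29 genes reach into their windows. *RRM2* is shown on the plus strand at chr2:10122365-10122394 and *TK1* on the minus strand at chr17:78187053-78187082, each inside the GENCODE 29 gene. *TYMS* is shown on the plus strand at chr18:657603-657632, which begins 1 base before its GENCODE 29 gene.
RRM1: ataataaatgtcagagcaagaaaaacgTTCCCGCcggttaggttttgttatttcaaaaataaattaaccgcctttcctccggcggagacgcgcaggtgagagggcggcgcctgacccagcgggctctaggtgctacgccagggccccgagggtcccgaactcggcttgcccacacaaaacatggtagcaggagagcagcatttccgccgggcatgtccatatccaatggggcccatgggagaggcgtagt
RRM2: ggggcccgcgcGCGCCAAggccgccgagac
TYMS: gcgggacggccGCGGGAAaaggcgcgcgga
TK1: tggtttaaagcggtcggcGCGGGAAccagg
The first base of the word lay 223 bases before the listed start of *RRM1*, 192 before that of *RRM2*, 39 before that of *TYMS* and 12 before that of *TK1*. The start used for each gene was the most upstream listed start whose 250 bases held the word, so it was chosen by the match. For *RRM2* this start, at 10122568, lies inside the GENCODE 29 gene, which begins at 10120698.

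To find which branches of nucleotide metabolism changed, WNK463 was compared with Control by edgeR's quasi-likelihood test over all 11973 genes that passed its filter, with Benjamini-Hochberg adjustment. All 39 members passed the filter. After WNK463, 28 of them fell and 6 rose by this test (adjusted p below 0.05), and 5 did not pass. Of all genes tested, 35.3% were lower and 35.5% were higher by the same rule, so the share of lower members, 71.8%, was above the background and the share of higher members, 15.4%, was below it. The median log2 fold change was -0.57 over the members and 0.02 over all genes tested. Control and WNK463 values did not overlap in 34 of the 39 members, against 73.5% of all genes. By at least 2-fold, 7 members were lower and 0 were higher, against 5.55% and 9.62% of all genes. In a bulk sample, fewer cells in S phase and less RNA per cell cannot be told apart.

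**Figure D1:**
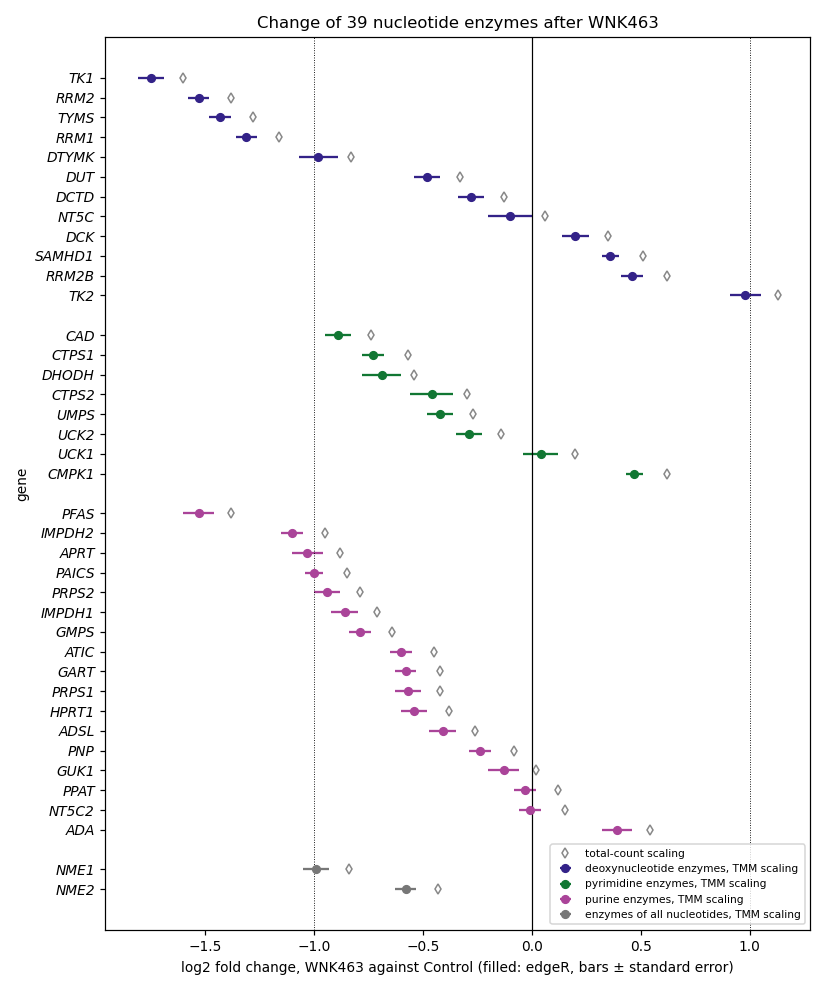
Log2 fold change of each of the 39 genes, WNK463 against Control (n = 3 each), on the x axis, grouped by class. Filled points are edgeR estimates with TMM scaling and bars of ± 1 standard error, open diamonds are estimates with total-count scaling, and dotted lines mark 2-fold. The values run from -1.75 for *TK1* to 0.98 for *TK2*, and the diamonds of *PPAT*, *NT5C2*, *GUK1* and *NT5C* lie on the other side of 0 from their points.

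By role, the fall was most frequent among enzymes of synthesis. Of 23 such genes, 21 were lower, only *RRM2B* was higher and only *PPAT* did not pass, with a median log2 fold change of -0.73. Among 7 salvage enzymes, 4 were lower and 2 were higher. Of 5 enzymes of breakdown, *SAMHD1* and *ADA* were higher, *PNP* was lower, and *NT5C* and *NT5C2* did not pass. Of the 4 nucleotide kinases, *NME1* and *NME2* were lower, *CMPK1* was higher and *GUK1* did not pass. Over all genes tested, 35.3% were lower and 35.5% were higher. Rises among the 7 salvage and 5 breakdown enzymes were thus at shares near that of all genes. These sets are small, and a difference between roles was not tested.

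The deoxynucleotide enzymes held 4 of the 7 members that fell by at least 2-fold. Of the 12 genes, 7 were lower, 4 were higher and *NT5C* did not pass. *RRM2* (ENSG00000171848) encodes the small subunit of ribonucleotide reductase that is made in S phase. It had 515, 474 and 496 CPM in the Control samples and 171, 169.9 and 173 CPM in the WNK463 samples. The WNK463 values were all far below the lowest Control value, with a log2 fold change of -1.53 ± 0.05 (standard error, edgeR adjusted p = 1.8e-14). *RRM1* (ENSG00000167325), the large catalytic subunit, had 273, 288 and 279 CPM in Control and 117, 115 and 106 CPM with WNK463, so the groups did not overlap. Its log2 fold change was -1.31 ± 0.05 (standard error, edgeR adjusted p = 3.5e-13). *RRM2B* (ENSG00000048392), the alternative small subunit that p53 can induce and that serves cells outside S phase, moved the other way. It had 119, 120.4 and 119 CPM in Control and 159, 175 and 159.5 CPM with WNK463, all above the Control values, a log2 fold change of 0.46 ± 0.05 (standard error, edgeR adjusted p = 3.2e-07).

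In TPM, which is per length and allows levels of different genes to be set side by side, *RRM2* was 5.19 times *RRM2B* in Control and 1.38 times *RRM2B* with WNK463. The summed TPM of both small subunits went from 336 ± 9.02 to 194 ± 5.63, which is 57.8% of Control, while *RRM1* went from 166 ± 5.63 to 76.4 ± 4.32 TPM. With WNK463, *RRM2B* at 81.7 ± 5.15 TPM was thus at about the level of *RRM1*, whereas in Control it was lower than *RRM1* in every sample. TPM was not scaled by TMM. The median log2 fold change over all genes was 0.17 in limma on log2(TPM + 1), against 0.02 in edgeR. Percentages of Control in summed TPM, here and below, are therefore higher than they would be on the TMM scale.

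Thymidylate synthase, the cytosolic thymidine kinase and thymidylate kinase all fell. *TYMS* (ENSG00000176890) encodes thymidylate synthase, which makes dTMP from dUMP, and had 155, 156 and 157 CPM in Control and 57.6, 55.4 and 61.0 CPM with WNK463. The groups were far apart, with a log2 fold change of -1.43 ± 0.05 (standard error, edgeR adjusted p = 2.3e-13). *TK1* (ENSG00000167900), the cytosolic thymidine kinase of S phase, had the largest fall of the 39 genes. Its values were 132, 118 and 119 CPM in Control and 36.5, 34.6 and 38.6 CPM with WNK463, a log2 fold change of -1.75 ± 0.06 (standard error, edgeR adjusted p = 1.9e-13), or 29.8% of Control. *DTYMK*, which phosphorylates dTMP, went from 43.3 ± 2.21 to 21.9 ± 2.69 CPM, for a log2 fold change of -0.98. The enzymes that supply dUMP changed less. *DUT*, which hydrolyses dUTP and keeps uracil out of DNA, had a log2 fold change of -0.48, and *DCTD*, which deaminates dCMP to dUMP, had -0.28. *DCTD* lost its call in TPM (-0.04, adjusted p = 0.41 from limma).

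*TK2* (ENSG00000166548), the mitochondrial thymidine kinase, had the largest rise of the 39 genes. It had 42.1, 40.6 and 35.7 CPM in Control and 74.6, 76.7 and 81.7 CPM with WNK463, with no overlap and a log2 fold change of 0.98 ± 0.07 (standard error, edgeR adjusted p = 7.0e-10), just under the 2-fold limit. With total-count scaling it was 1.13 and passed that limit. Its TPM with WNK463 spread more widely than its counts, at 95.4, 65.4 and 74.1. *DCK*, the deoxycytidine kinase that also activates the AML drug cytarabine, had 79.8, 88.1 and 97.4 CPM in Control and 99.2, 104 and 102 CPM with WNK463. The groups lay close together, with a log2 fold change of 0.20 (adjusted p = 0.01 from edgeR), and without Control replicate 1 the rise was 0.12 and did not pass (adjusted p = 0.056 from edgeR). *SAMHD1* breaks deoxynucleoside triphosphates down to nucleosides and also inactivates the triphosphate of cytarabine. It rose from 557, 556 and 573 CPM to 736, 694 and 732 CPM, for a log2 fold change of 0.36 ± 0.04 (standard error, edgeR adjusted p = 9.0e-07). *NT5C*, a deoxyribonucleotidase, had 17.5 ± 1.38 CPM in Control and 16.4 ± 1.64 with WNK463, a log2 fold change of -0.10 with a 95% interval from -0.30 to 0.10.

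**Figure D2:**
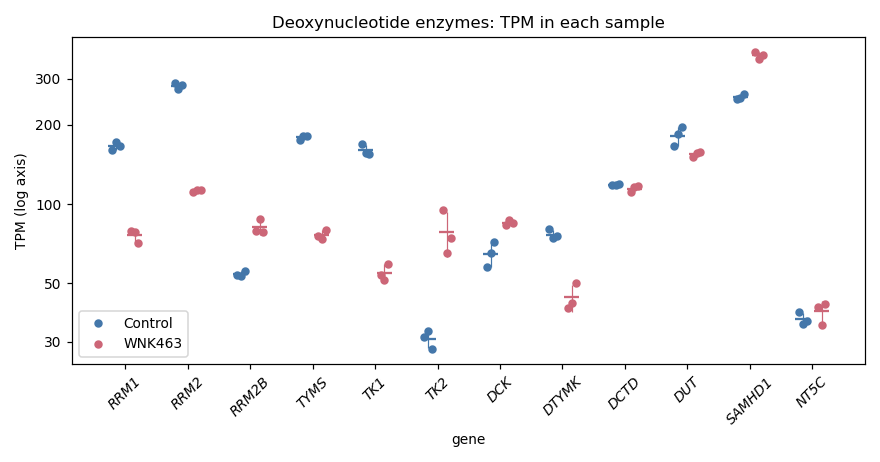
TPM of the 12 deoxynucleotide enzymes in each of the 3 Control samples and 3 WNK463 samples, on a log axis. Points are samples, horizontal bars are means and vertical bars are ± 1 SD. *RRM1*, *RRM2*, *TYMS*, *TK1* and *DTYMK* lie lower with WNK463, and *RRM2B*, *TK2*, *DCK* and *SAMHD1* lie higher.

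Levels of S-phase genes moved with these falls. All 12 genes of a list of S-phase genes were lower, with log2 fold changes from -2.38 for *MCM5* to -0.79 for *SLBP* and a median of -1.65. Among all genes tested, 35.3% were lower and 5.55% were lower by at least 2-fold. The list was drawn up with earlier results of these data known, and the paper reports *MCM5* and *GINS2* as down-regulated in the same RNA-seq data. The 9 past 2-fold were *MCM5*, *GINS2*, *CDC6*, *MCM2*, *MCM6*, *CDC45*, *MCM3*, *E2F1* and *CCNE2*. The summed level of all 12 was 2773 to 2808 CPM in Control and 957 to 975 CPM with WNK463. *E2F1*, which encodes a transcription factor of this program, had a log2 fold change of -1.29. The part of S-phase cells in the falls of nucleotide enzymes was not tested.

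All 5 enzymes of pyrimidine synthesis were lower, none of them by 2-fold. *CAD* encodes the protein that carries out the opening steps up to dihydroorotate. It had 344, 321 and 296 CPM in Control and 179, 168 and 172 CPM with WNK463, a clear separation with a log2 fold change of -0.89 ± 0.06 (standard error, edgeR adjusted p = 1.3e-10). *DHODH*, the mitochondrial enzyme that forms orotate and a target studied in AML, had 26.0, 22.9 and 27.2 CPM in Control and 14.5, 15.9 and 16.8 CPM with WNK463. The groups did not overlap, and the log2 fold change was -0.69 ± 0.09 (standard error, edgeR adjusted p = 3.6e-06). *UMPS*, which turns orotate into UMP, fell by 0.42 on the log2 scale. The log2 fold change of the CTP synthase *CTPS1* was -0.73, from 192 ± 8.79 to 116 ± 0.136 CPM, and that of *CTPS2* was -0.46, a call that was lost in TPM (-0.19, adjusted p = 0.17 from limma). Of the salvage kinases, *UCK2*, a uridine-cytidine kinase, was lower too, with a log2 fold change of -0.29 in counts and -0.54 in TPM. The other one, *UCK1*, did not pass, with 0.04 and a 95% interval from -0.11 to 0.20, and the enzyme that phosphorylates UMP and CMP, *CMPK1*, rose from 262 ± 6.83 to 363 ± 6.04 CPM, for a log2 fold change of 0.47 (adjusted p = 3.5e-08 from edgeR). *CMPK1* had the highest TPM of the 8 pyrimidine genes in Control. The summed TPM of the class was 95.2% of Control, with 627 ± 13.1 TPM in Control against 596 ± 9.62 TPM after WNK463. This sum includes the rise of *CMPK1*, from 181 ± 4.39 to 275 ± 4.66 TPM, beside the falls of other genes. TPM also put the median over all genes 0.16 (log2) above the edgeR fit. For both reasons the percentage is high beside most log2 fold changes above.

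Of 17 purine genes, 13 were lower, *ADA* was higher, and *PPAT*, *GUK1* and *NT5C2* did not pass, with a class median of -0.58. The summed TPM of the class was 72.7% of Control, against 80.0% for the deoxynucleotide enzymes. The deoxynucleotide sum holds 7 genes that were lower and 4 that were higher, among them *SAMHD1*, which went from 255 ± 5.87 to 367 ± 11.0 TPM.

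Along the route to IMP, 5 of 6 enzymes were lower. *PPAT* commits PRPP to the route and is its controlled step, and it was the exception. It had 72.5, 72.4 and 74.5 CPM in Control and 73.3, 71.7 and 70.2 CPM with WNK463. These values overlap, and the log2 fold change was -0.03 (standard error 0.05, 95% interval from -0.13 to 0.08, adjusted p = 0.66 from edgeR). With total-count scaling it was 0.12 and passed (adjusted p = 0.044 from edgeR). *PFAS* (ENSG00000178921), an amidotransferase of the route, had 152, 137 and 123 CPM in Control and 48.4, 45.2 and 48.8 CPM with WNK463. The groups were far apart, and its log2 fold change of -1.53 ± 0.07 (standard error, edgeR adjusted p = 3.1e-12) was the largest fall outside the deoxynucleotide branch. *PAICS*, which carries out later steps of the route, had 493, 509 and 513 CPM in Control and 259, 248 and 251 CPM with WNK463, all below Control, a log2 fold change of -0.999 that missed the 2-fold limit. *GART*, a protein with several activities of the route, had a log2 fold change of -0.58, the lyase *ADSL* had -0.41 and *ATIC*, which closes the ring to IMP, had -0.60.

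*PPAT* and *PAICS* are neighbours transcribed away from each other on chromosome 4, so the stretch between their starts is shown beside their different behaviour. The start of *PPAT* lies at 56435615 on the minus strand and that of *PAICS* at 56435741 on the plus strand (GENCODE 29, GRCh38), a distance of 126 bases. The intergenic sequence at chr4:56435616-56435740, read on the plus strand from *PPAT* to *PAICS*, follows with the GC box word GGGCGG in capitals.
PPAT-PAICS: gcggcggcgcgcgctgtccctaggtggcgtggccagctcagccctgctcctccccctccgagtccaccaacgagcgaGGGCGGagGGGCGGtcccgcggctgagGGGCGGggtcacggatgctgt
The word occurred 3 times in this stretch. It was found, on either strand, before 29 of the 36 members with a listed start (80.6%) and 46.2% of all listed genes. The stretch held neither an E2F-like word nor the E-box word CACGTG, and none of the words searched contains another. The 250 bases before a listed start reach beyond this stretch. In them *PAICS* held an E2F-like word and *PPAT* did not, while *PPAT* held CACGTG and *PAICS* did not. The part of these words in the different behaviour of the genes was not tested. CACGTG was found before *PPAT*, *ATIC*, *DHODH* and *DCK* (11.1% of members, 7.73% of all listed genes), and CCAAT before 12 members (33.3%, against 37.0% of all listed genes).

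**Figure D3:**
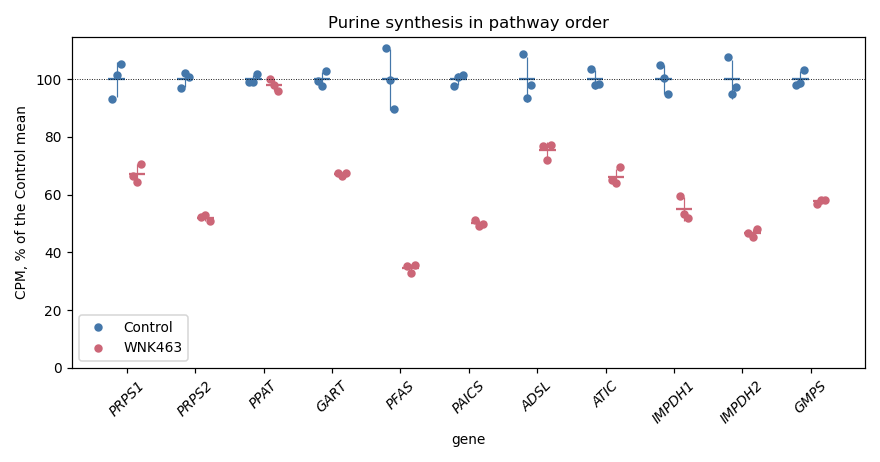
CPM of the PRPP synthetases and of the purine synthesis enzymes in pathway order, in each sample, as a percentage of the Control mean of that gene (n = 3 each, bars are means and ± 1 SD). *PPAT* stays at 98.1% in the edgeR estimate while *PFAS* is at 34.6% and *GMPS* at 57.7%.

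PRPP itself is made by the products of *PRPS1* and *PRPS2*, and both were lower. *PRPS2* had 56.2, 59.3 and 58.4 CPM in Control and 30.2, 30.7 and 29.5 CPM with WNK463, a log2 fold change of -0.94, and *PRPS1* had a log2 fold change of -0.57. Beyond IMP, the enzymes that lead to GMP fell together. *IMPDH2* (ENSG00000178035), the main IMP dehydrogenase of dividing cells and the target of mycophenolic acid, had 469, 413 and 424 CPM in Control and 203, 198 and 209 CPM with WNK463. No WNK463 value came near a Control value, with a log2 fold change of -1.10 ± 0.05 (standard error, edgeR adjusted p = 4.1e-12). *IMPDH1* had -0.86, and *GMPS*, which aminates XMP to GMP, had -0.79. The summed TPM of the IMP dehydrogenases was 55.3% of Control.

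The salvage phosphoribosyltransferases were both lower. *APRT* (ENSG00000198931), which recovers adenine, had 141, 127 and 117 CPM in Control and 60.0, 63.3 and 64.9 CPM with WNK463. The groups did not overlap, and the log2 fold change was -1.03 ± 0.07 (standard error, edgeR adjusted p = 2.3e-10). With total-count scaling, *IMPDH2* and *APRT* remained lower but were under the 2-fold limit, at -0.95 and -0.88. *HPRT1*, which recovers hypoxanthine and guanine and also activates thiopurine drugs, had a log2 fold change of -0.54. *ADA*, the deaminase of adenosine and deoxyadenosine, had 87.1, 71.6 and 78.4 CPM in Control and 103, 96.1 and 111 CPM with WNK463, all above the highest Control value, a log2 fold change of 0.39 (adjusted p = 8.1e-05 from edgeR). *PNP*, which splits inosine and guanosine, had -0.24 but lost its call with total-count scaling (-0.08, adjusted p = 0.11 from edgeR) and in TPM (-0.03, adjusted p = 0.54 from limma). *NT5C2*, a purine nucleotidase that can inactivate thiopurines, had 147 ± 0.437 CPM in Control and 146 ± 0.991 with WNK463, a log2 fold change of -0.01 with a 95% interval from -0.10 to 0.09. With total-count scaling it was 0.15 and passed (adjusted p = 0.0082 from edgeR). For *GUK1*, the kinase that phosphorylates GMP, the log2 fold change was -0.13, and its 95% interval ran from -0.26 to 0.00.

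The nucleoside diphosphate kinases *NME1* and *NME2*, which add the last phosphate to all nucleotides, were the enzymes of all nucleotides in the list, and *NME2* had the highest TPM of the 39 genes. *NME1* had 160.1, 151 and 155 CPM in Control and 72.1, 78.1 and 83.6 CPM with WNK463, a log2 fold change of -0.99, and *NME2* had -0.58. The genes are adjacent and similar in sequence, and a read-through gene that joins them, *NME1-NME2*, had 9.62, 10.5 and 11.3 CPM in Control and 16.5, 13.0 and 12.2 CPM with WNK463, so reads may be split between these rows. *TYMS* overlaps *ENOSF1* on the opposite strand. *ENOSF1* had 22.3, 19.3 and 17.5 CPM in Control and 9.24, 9.83 and 9.13 CPM with WNK463, and the sources used here do not say whether counting used strand. *TK2*, which had the largest rise, overlaps the protein-coding gene *AC010542.3* of the table on the same strand. *DCK* and *ADSL* also overlap genes of the table on the same strand. Reads of these 3 members may thus be shared whether or not counting used strand. In GENCODE 29, 15 of the 39 members overlap another gene of the table, and 12 members have 39 annotated pseudogenes between them, of which 0 are in the table.

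Since the members include 7 pairs of enzymes with the same reaction, the log2 ratio of TPM within each pair was compared between the groups. Such a ratio is taken inside a sample, so it does not depend on how libraries are scaled. In each of the 7 pairs the groups did not overlap (exact two-sided permutation test, p = 0.10 for each pair and 0.10 after Benjamini-Hochberg adjustment over the 7, the smallest that 3 samples against 3 allow), so none could pass 0.05. Of all single genes tested, 73.5% did not overlap between the groups either, and the share over other pairs of genes was not computed. The pairs that changed by at least 1 on the log2 scale were the S-phase form against its partner. For *TK1/TK2* the log2 ratio was 2.43, 2.25 and 2.46 in Control and -0.83, -0.34 and -0.31 with WNK463, so *TK1* was the higher of the pair in each Control sample and *TK2* in each WNK463 sample. The change was -2.88 (standard error 0.18). For *RRM2/RRM2B* the log2 ratio was 2.43, 2.35 and 2.34 in Control and 0.49, 0.37 and 0.53 with WNK463, and *RRM2* stayed the higher of the pair in every sample. The change was -1.91 (standard error 0.06).

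The other pairs shifted less. *PRPS1* gained on *PRPS2* by 0.47 ± 0.10 (log2, standard error) and *IMPDH1* on *IMPDH2* by 0.23 ± 0.09. The log2 ratio of *CTPS1* to *CTPS2* changed by -0.38 ± 0.13 and that of *NME1* to *NME2* by -0.41 ± 0.02. *UCK1* gained on *UCK2* by 0.78 ± 0.16 in TPM but by 0.33 in counts, so the size of this shift depended on the unit.

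**Figure D4:**
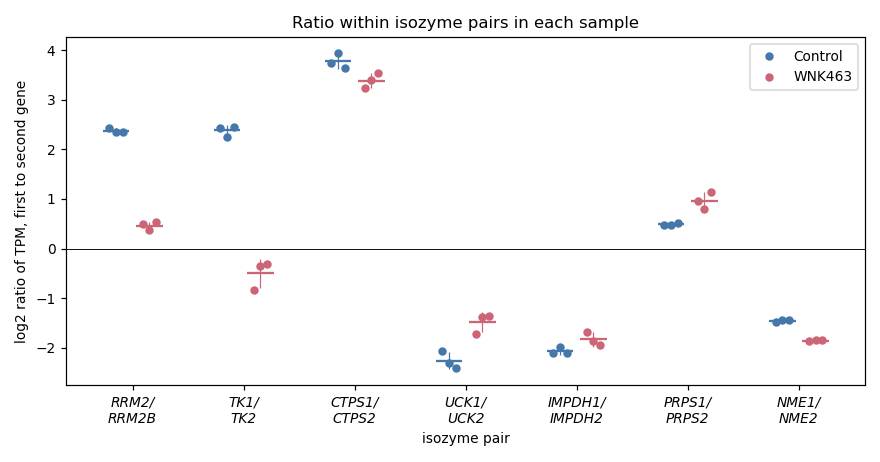
Log2 ratio of TPM of the first gene to the second in 7 isozyme pairs, in each of 3 Control and 3 WNK463 samples. Points are samples, horizontal bars are means and vertical bars are ± 1 SD. The *TK1/TK2* ratio crosses 0, and the *RRM2/RRM2B* ratio falls from a mean of 2.37 to 0.46.

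Other enzymes and nucleoside transporters of these routes moved in both directions, at shares near those of all genes by adjusted p alone. Of 50 listed genes, 37 passed the filter, of which 13 were lower, 16 were higher and 8 did not pass, with a median log2 fold change of 0.13. These are 35.1% lower and 43.2% higher, against 35.3% and 35.5% of all genes tested. By at least 2-fold, 5 of the 37 were lower, a larger share than the 5.55% of all genes, and 4 were higher, near the 9.62% of all genes. The main equilibrative nucleoside transporter, *SLC29A1*, which also carries cytarabine into cells, went from 128 ± 4.11 to 56.9 ± 2.28 CPM, for a log2 fold change of -1.17 (adjusted p = 3.7e-12 from edgeR). *NME4*, a mitochondrial nucleoside diphosphate kinase, went from 76.3 ± 2.03 to 27.9 ± 0.827 CPM, for a log2 fold change of -1.45. In the other direction, *ADA2*, the secreted adenosine deaminase of myeloid cells, went from 50.7 ± 5.52 to 152 ± 8.82 CPM, for a log2 fold change of 1.58. *NT5M*, a mitochondrial deoxyribonucleotidase, went from 6.76 ± 0.739 to 18.8 ± 2.07 CPM, for a log2 fold change of 1.47. The other genes past 2-fold were *AK4*, *AK5* and *CDA*, which were lower, and *AK1* and *UPP1*, which were higher, all with group means of 3.15 CPM or less. The call of *AK1*, with a log2 fold change of 1.38, was lost in DESeq2 (1.38, adjusted p = 0.051).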

How the data were processed

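For 20348 genes, the deposited table gives each sample's estimated count, rounded and not normalized, and its TPM, both made by the authors. The submitters' processing notes name fastp, Bowtie2, HISAT2, StringTie, RSEM, DESeq2 and edgeR and the build GRCh38. Versions, strand setting and annotation are not given in the sources used here. A count of 0 stood beside a TPM above 0 in 62 values, so the deposited counts are rounded estimates. The table also holds the authors' group means of TPM, log2 fold changes, p-values and FDR, which were not used.

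Counts were normalized with TMM (factors 0.944 to 0.951 in Control, 1.05 to 1.06 with WNK463) and tested with edgeR 4.0.16 (default filter, quasi-likelihood test, no replicate block) in R 4.3.3, with Benjamini-Hochberg adjustment over all 11973 genes tested. The standard error is |log2 fold change| over the root of F, and 95% intervals are normal approximations made with it. CPM use TMM library sizes. Isozyme ratios used deposited TPM and an exact permutation test. Replicate libraries differed by more than sampling noise (chi-square over its degrees of freedom, 2.66 to 7.42). The fits were tested on simulated data. Coordinates come from GENCODE 29 and upstream sequences from RefSeq (GRCh38.p14). Members, gene lists and tests were chosen with earlier results of these data known. All members were described, with the value in each sample for those past 2-fold and for isozyme pairs that changed by at least 1 (log2), and other nucleotide enzymes and S-phase genes past 2-fold were named. The members just under 2-fold and others given by sample, and the cell type markers singled out, were chosen after their values were seen, as were the words searched upstream of genes. Alternatives were DESeq2 1.42.0, total-count scaling, no filter and at least 10 counts in every sample, the replicate block, limma 3.58.1 on log2(TPM + 1) and log2(TPM + 0.1) with a mean of at least 1 TPM in either group, ratios of counts, and each sample left out.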

Additional observations from a re-analysis of the deposited data

How the results depend on the processing

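For the 39 members, 507 combinations of a gene and an alternative were run, of which 481 kept the direction and the side of the threshold, 8 lost the call, 4 gained one and 14 changed sign. The sign changes were in the 5 genes that did not pass. With total-count scaling, limma on log2(TPM + 1) and limma on log2(TPM + 0.1), *PPAT* was 0.12, 0.19 and 0.19, *NT5C2* 0.15, 0.14 and 0.14, *GUK1* 0.02, 0.09 and 0.09, and *NT5C* 0.06, 0.09 and 0.09. *NT5C2* was 0.01 with at least 10 counts in every sample, and *UCK1* was -0.03 without Control replicate 3. Scaling by total counts moved the median over all genes up by 0.15 (log2). Limma on log2(TPM + 1) moved it up by 0.16 and on log2(TPM + 0.1) by 0.17. Under total counts and both TPM settings, 2 pyrimidine members (*CMPK1* and *UCK1*) and 3 purine members (*ADA*, *PPAT* and *NT5C2*) were higher. With each sample left out, 28 to 29 members were lower, 5 to 6 higher and 7 to 10 past 2-fold. *TK1*, *RRM2*, *TYMS*, *RRM1* and *PFAS* were past 2-fold under all alternatives. In counts, the ratio change of *RRM2/RRM2B* was -1.99 and that of *UCK1/UCK2* was 0.33. Same-numbered samples did not deviate together (correlations 0.01, 0.02 and -0.06), and were not treated as pairs, and the replicate block also gave 28 lower and 6 higher members. With 3 samples a group, a permutation test cannot reach 0.05.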

Other observations

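Counts and TPM moved apart for a few members. The change in reads per TPM between the groups, each relative to the total count, is near 0 where a gene keeps the same mix of transcript lengths in the deposited estimates. It lay between -0.11 and 0.10 (log2) for the other 35 members, while it was 0.41 for *UCK2*, 0.24 for *UMPS*, -0.18 for *TK2* and -0.26 for *CAD*. The log2 fold change of *CAD* was accordingly -0.74 with total-count scaling and -0.47 in TPM, and that of *UCK2* was -0.14 and -0.54. Transcript-level values were not analysed here. These genes were chosen after their values were seen.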
